A study of Mus musculus with 12 samples.

Results

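The Schlafen genes are a mouse gene family named after the German word for sleep, because its first member was found to slow the growth of thymocytes. Members Slfn1, Slfn2, Slfn3, Slfn4, Slfn5, Slfn8 and Slfn9 were looked up by symbol and Ensembl ID, and all 7 were found among 38924 gene IDs. They were read in 12 RNA sequencing libraries of CD4+ T cells, 3 for each of 4 groups. WT and STINGgt/gt (Goldenticket) cells were each cultured for 16 h with the solvent DMSO or with CMA (10-carboxymethyl-9-acridanone), a cell-permeable ligand that activates mouse STING.

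STING is the adaptor that turns detection of cytosolic DNA into signalling through TBK1, IRF-3 and NF-κB. The Goldenticket allele is a germline point mutation of the STING gene Tmem173, present in every cell of the animal, and the labels call these mice STING KO. Both genotypes were adult C57BL/6 mice. In all groups, naive cells were sorted from spleen, expanded with antibodies against CD3 and CD28, rested without antibodies and then treated, so every library came from previously activated cells. The study describes the libraries of a group as biological replicates, without saying in the sources used here whether each came from a separate mouse. The tests measure the spread between these libraries.

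Schlafen genes are classic interferon-stimulated genes, and several restrain cell growth or act on transfer RNA. Slfn2 is the member best known in T cells, where its loss ends quiescence, the resting state of naive cells, and where it binds transfer RNA and shields it from cleavage. Interferons signal through receptors, the kinases Jak1 and Tyk2 and a complex that holds Stat2 and Irf9, which binds interferon-stimulated response elements (ISREs) in promoters. The short proteins Slfn1 and Slfn2 have longest annotated coding sequences of 337 and 378 codons. The intermediate Slfn4 and Slfn3 have 602 and 640 codons. The long members Slfn5, Slfn8 and Slfn9, which carry a helicase-like part that the others lack, have 884, 910 and 910 codons.

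All members lie on chromosome 11 of the mouse build GRCm38. Slfn5 (82951349 to 82962941, plus strand) comes first, followed by Slfn9 (82979629 to 82991830, minus strand) and Slfn8 (83002158 to 83020810, minus strand). Slfn2 (83065112 to 83070678), Slfn1 (83116849 to 83122670), Slfn4 (83175186 to 83190221) and Slfn3 (83191330 to 83215154) follow on the plus strand.

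Promoter windows show what the members share and do not share at their start sites. The RefSeq table for GRCm38.p6 held 8 windows for the 7 members, each from 250 bases before to 50 bases after a start, with Slfn8 having 2 starts. A strict ISRE core, GAAANNGAAA on either strand, was found in the windows of 3 members, Slfn5, Slfn8 and Slfn9, and in 3.44% of 32851 windows of all genes. The shorter half-site AANNGAAA, which the ISRE core contains, was found in the windows of all 7 members and in 23.9% of all windows. The STAT-type core TTCNNNGAA was found in none of the members' windows and in 8.3% of all windows. The Slfn5 window (82951852 to 82952151) lies inside the gene as placed above, from 82951349. The bases before that position were not searched for Slfn5. A match is a description of letters, and no binding was measured here.

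The stretches below show each ISRE match, and for Slfn1 and Slfn2, the most abundant members, the half-sites. They are written in the direction of the gene with 25 bases on either side, and capitals mark the match. They lie at chr11:82951922-82951981 (Slfn5, plus strand), chr11:83020824-83020883 (Slfn8, minus strand), chr11:82991841-82991900 (Slfn9, minus strand), chr11:83116764-83116821 (Slfn1, plus strand) and chr11:83065006-83065085 (Slfn2, plus strand).
Slfn5: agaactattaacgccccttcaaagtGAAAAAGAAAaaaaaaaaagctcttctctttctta
Slfn8: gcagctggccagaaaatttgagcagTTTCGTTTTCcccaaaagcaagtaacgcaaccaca
Slfn9: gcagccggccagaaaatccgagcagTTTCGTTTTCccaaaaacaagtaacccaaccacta
Slfn1: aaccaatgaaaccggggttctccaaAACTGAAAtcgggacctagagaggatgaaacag
Slfn2: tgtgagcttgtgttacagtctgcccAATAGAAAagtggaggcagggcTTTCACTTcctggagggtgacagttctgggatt
The stretches of Slfn8 and Slfn9 hold the same reverse-strand match inside a shared run of 18 bases. The Slfn5 match is a different one and runs into a row of A, and its longest run in common with either of the others is 6 bases.

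Each library held between 27414450 and 43784910 reads on genes. Some measures of the reads moved with CMA in WT and with genotype. Reads outside genes were 4.86% to 5.47% of entries in WT DMSO and 6.79% to 7.16% in WT CMA, against 5.98% to 6.54% and 6.02% to 6.33% in STINGgt/gt DMSO and CMA. Alignments that were not unique were 29.6% to 30.3% in WT DMSO, 27.8% to 27.9% in WT CMA and 28.1% to 29.0% over the STINGgt/gt libraries. Their part in the Schlafen levels was not tested. T cell identity was checked on 10 markers, all of which passed the filter on low counts. The helper T cell marker Cd4 averaged 436, 498, 540 and 523 normalised CPM (counts scaled by library size) in WT DMSO, WT CMA, STINGgt/gt DMSO and STINGgt/gt CMA. With CMA in WT, 2 of the 10 were called higher and 6 lower, with log2 differences from -1.13 (Lat, a signalling adaptor) to 0.48 (Cd247, a receptor chain), and in STINGgt/gt cells none was called. Transcripts of other cell types were also present, and several moved with CMA in WT. Of 8 B cell markers 5 were called higher and 1 lower. Of 7 CD8 T and natural killer cell markers 1 was called higher and 5 lower, with the protease transcript Gzma at 45.5 ± 8.77 CPM (SD, n = 3) with DMSO and 9.61 ± 1.03 CPM with CMA. Of 3 tested dendritic cell markers 2 were called higher and 1 lower, with the transcription factor Zbtb46 at 8.25 ± 1.03 CPM with DMSO and 55.5 ± 2.30 CPM with CMA, while the other 3 of the list, Xcr1, Clec9a and Siglech, had no reads in 9, 10 and 10 of the 12 libraries. None of these markers was called in STINGgt/gt cells, and their part in the Schlafen levels was not tested. The summed level of 8 B cell markers was 225.0 to 228.1 CPM in WT DMSO, 317 to 336 CPM in WT CMA and 103 to 108 CPM over the STINGgt/gt libraries. Tmem173 itself averaged 186 ± 3.85 CPM in WT DMSO and 173 ± 7.10 in STINGgt/gt DMSO (SD, n = 3), and 305 ± 10.1 in WT CMA and 176 ± 7.54 in STINGgt/gt CMA. A point mutation leaves the transcript in place, so this level does not check the genotype labels.

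The first comparison was CMA against DMSO in WT cells. All 7 members rose, from 2.07-fold for Slfn9 to 11.0-fold for Slfn4, and the WT CMA libraries lay above every WT DMSO library for each of them, beside 33.5% of all tested genes for which this held. Counts were tested with the quasi-likelihood method of edgeR, and p-values were adjusted (Benjamini-Hochberg) over 13811 genes, with 0.05 as the threshold. The test called 33.0% of all tested genes higher and 37.4% lower in this comparison, so a call by itself is common here. The sizes stood further out. The median log2 difference of the members was 2.50 against -0.04 over all tested genes, and between 1.25% (Slfn4) and 8.93% (Slfn9) of tested genes had a log2 difference at least as high as that of a single member. In bulk RNA, a change in the level per cell and a change in which cells remain cannot be told apart.

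**Figure D1:**
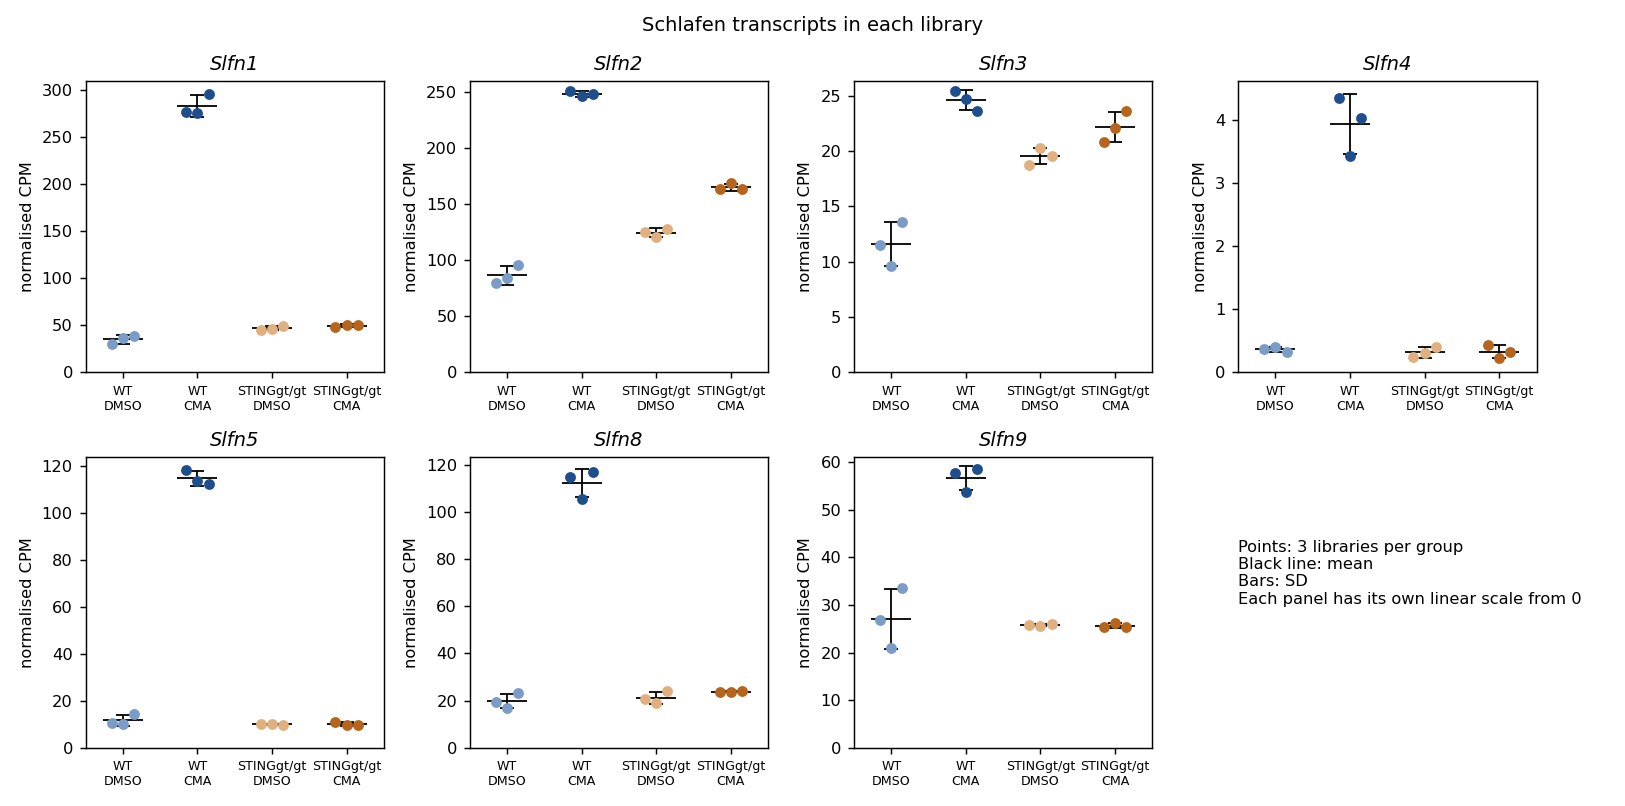
Normalised CPM (vertical axis, linear from 0, own scale per panel) of each Schlafen member in the 4 groups; points are the 3 libraries of a group, black lines their mean and bars the SD. In every panel the WT CMA libraries lie above all WT DMSO libraries, whereas for Slfn3 they lie close to the STINGgt/gt CMA libraries, at 23.6 to 25.5 CPM against 20.8 to 23.6 CPM.

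Slfn1, the founding member that restrains thymocyte growth, read 29.6, 36.4 and 38.6 CPM in the WT DMSO libraries and 276, 275 and 296 CPM in the WT CMA libraries. The lowest WT CMA library lay well above the highest WT DMSO library. The log2 difference was 3.01 ± 0.0749 (SE, edgeR adjusted p = 4.12e-15), an 8.07-fold rise.

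Slfn2, the quiescence factor, read 79.5, 83.6 and 95.7 CPM with DMSO and 251, 246 and 248 CPM with CMA. It rose 2.87-fold (log2 difference 1.52 ± 0.0564, edgeR adjusted p = 5.58e-13). Its libraries were tight within each group, and its SE was the smallest of the family in this comparison.

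Slfn4, an intermediate member studied mainly in myeloid cells, was the scarcest. It had 10, 12 and 13 reads in the WT DMSO libraries and 156, 111 and 128 reads in the WT CMA libraries, or 0.317 to 0.403 CPM against 3.42 to 4.35 CPM. The log2 difference of 3.45 ± 0.203 (edgeR adjusted p = 1.98e-10) was the largest of the family and also the least precise. All 7 members passed the filter on low counts, which asked for 0.275 CPM in at least 3 libraries. Slfn4 met this level in 7 of the 9 libraries outside WT CMA, and the other 6 members met it in all 12 libraries.

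Myeloid transcripts did not follow a single direction beside it. Of 10 myeloid markers 6 were tested, with 1 higher and 3 lower in WT CMA, and their summed level went from 27.4 to 32.4 CPM with DMSO to 62.0 to 72.9 CPM with CMA. Mpeg1, a pore-forming protein of phagocytes, carried that rise (19.4 CPM on average with DMSO and 62.2 CPM with CMA), whereas the lysozyme transcript Lyz2 averaged 3.25 CPM with DMSO and 1.16 CPM with CMA. Of the 10 markers 7 had reads in STINGgt/gt cells, with Mpeg1 at 14.5 CPM with DMSO and 15.8 CPM with CMA and Itgam at 1.31 and 1.08 CPM, and the other 3, S100a9, S100a8 and Fcgr1, were at 0. The part of these cells in the Slfn4 level was not tested.

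Slfn3, the other intermediate member, moved far less than its neighbour Slfn4. It read 11.5, 9.63 and 13.6 CPM with DMSO and 25.5, 24.7 and 23.6 CPM with CMA in WT cells. The log2 difference was 1.08 ± 0.0914 (edgeR adjusted p = 2.09e-08).

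Among the long members, Slfn5, a nuclear protein, changed most. It read 10.6, 10.2 and 14.4 CPM in WT DMSO and 118, 113 and 112 CPM in WT CMA, a 9.65-fold rise (log2 difference 3.27 ± 0.0910, edgeR adjusted p = 1.64e-14). The annotation holds an antisense gene, Slfn5os, with 5 to 9 reads in the WT CMA libraries and at most 1 read in any other library. Slfn5os was not tested.

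Slfn8, which shares the long structure, read 19.2, 17.0 and 23.1 CPM with DMSO and 115, 106 and 117 CPM with CMA. Its rise was 5.64-fold (log2 difference 2.50 ± 0.0895, edgeR adjusted p = 3.61e-13). Slfn9, with a coding sequence of the same length, read 26.9, 20.9 and 33.5 CPM with DMSO and 57.7, 53.7 and 58.6 CPM with CMA. The log2 difference of Slfn9 was 1.05 ± 0.105 (edgeR adjusted p = 1.45e-07), so its rise was the smallest of the long members. In proportion to their mean, the WT DMSO libraries of Slfn9 spread more widely than those of any other member.

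The presence of the strict ISRE core did not order these sizes. The members with a match had log2 differences of 3.27 (Slfn5), 2.50 (Slfn8) and 1.05 (Slfn9). The members without one had 3.45 (Slfn4), 3.01 (Slfn1), 1.52 (Slfn2) and 1.08 (Slfn3). The ranges of both sets overlapped over most of their length, and no test was run on them.

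The same treatment was then compared in STINGgt/gt cells. Here 1 of the 7 members, Slfn2, was called higher and none lower, beside 0.398% of all tested genes called higher and 0.920% called lower. The other 6 members did not pass the test. At an unadjusted p under 0.05, edgeR gave 2 members higher, Slfn2 and Slfn3, and 0 lower. The share of all tested genes at that threshold is not given here, so these 2 cannot be set against it.

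Slfn2 read 125, 120.1 and 128 CPM in STINGgt/gt DMSO and 163, 168 and 163 CPM in STINGgt/gt CMA, with no overlap between the groups. The rise was 1.33-fold (log2 difference 0.41 ± 0.0551, edgeR adjusted p = 0.00145). It was called in all 21 alternative fits, with adjusted p up to 0.036. By the size of its log2 difference, Slfn2 was at place 382 of 13811 tested genes.

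For 4 further members in STINGgt/gt cells the log2 difference is given with limits of 2 standard errors to either side. Slfn5 had 0.02 (-0.18 to 0.23) and Slfn9 -0.01 (-0.22 to 0.21). Slfn1 had 0.08 (-0.07 to 0.22) and Slfn8 0.17 (-0.02 to 0.35). For these 4 members the limits lie below the log2 differences seen in WT cells.

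Slfn3 had 0.18 (0.01 to 0.35, edgeR adjusted p = 0.377), although its 3 CMA libraries (20.8, 22.1 and 23.6 CPM) lay above its 3 DMSO libraries (18.8, 20.3 and 19.5 CPM). Slfn4 was known least well, at 0.04 (-0.60 to 0.69), with 9 to 13 reads per library with DMSO and 10 to 16 reads with CMA. Changes of Slfn4 within these limits were not detectable at this depth.

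**Figure D2:**
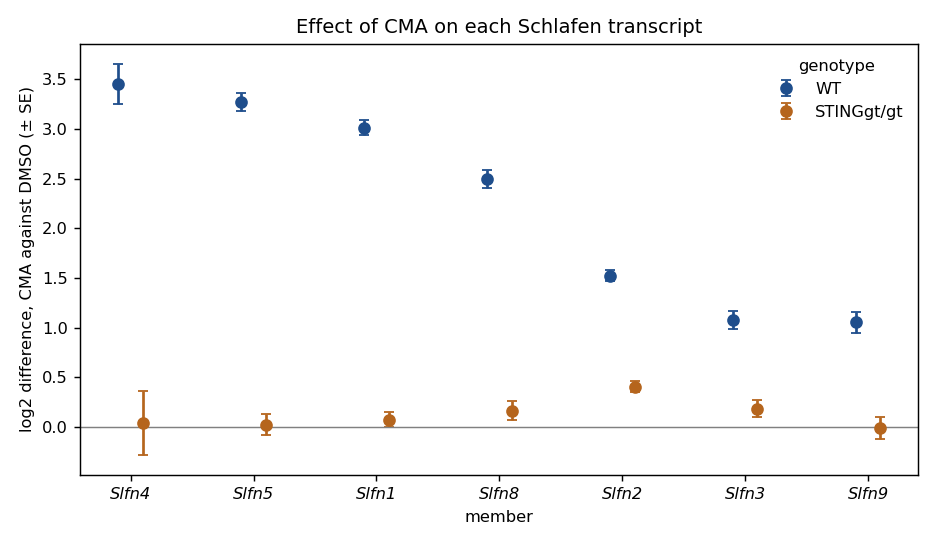
The log2 difference between CMA and DMSO (vertical axis) for each member (horizontal axis), with points for WT and STINGgt/gt and bars of 1 SE. The WT values run from 1.05 to 3.45, while in STINGgt/gt the highest is that of Slfn2 at 0.41.

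Whether the effect of CMA differed between the genotypes was tested directly, as the interaction in the same edgeR model. All 7 members were called with the larger effect in WT, where 27.2% of all tested genes were called in this direction. The difference of the log2 effects was largest for Slfn4 (3.41 ± 0.416, adjusted p = 2.96e-06), Slfn5 (3.25 ± 0.139, adjusted p = 1.09e-11) and Slfn1 (2.94 ± 0.103, adjusted p = 1.07e-12). It was smallest for Slfn3 (0.89 ± 0.125, adjusted p = 1.36e-05), Slfn9 (1.06 ± 0.150, adjusted p = 1.48e-05) and Slfn2 (1.11 ± 0.0783, adjusted p = 4.43e-09). Slfn8 lay between, at 2.33 ± 0.128 (adjusted p = 2.27e-10).

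The genotypes also differed without the ligand. After the culture with DMSO, 3 of the 7 members, Slfn1, Slfn2 and Slfn3, were lower in WT than in STINGgt/gt cells and none was called higher, beside 19.8% of all tested genes called lower and 22.9% called higher. For these 3 the WT libraries lay below every STINGgt/gt library, as they did for 22.6% of all tested genes. The STINGgt/gt DMSO libraries read 45.2, 45.5 and 49.4 CPM for Slfn1. The log2 difference of Slfn1, WT against STINGgt/gt, was -0.41 ± 0.0746 (edgeR adjusted p = 2.96e-04).

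Slfn2 differed by -0.52 ± 0.0561 (edgeR adjusted p = 1.39e-06), and Slfn3 by -0.74 ± 0.0925 (edgeR adjusted p = 7.64e-06). For Slfn3 this corresponded to a level 1.67-fold higher in the cells with mutant STING. None of these 3 differences reached 2-fold.

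The other 4 members did not pass the test with DMSO. Slfn5 came closest, since its 3 WT libraries (10.6, 10.2 and 14.4 CPM) lay just above the 3 STINGgt/gt libraries (9.89, 9.96 and 9.80 CPM), with a log2 difference of 0.26 ± 0.105 (edgeR adjusted p = 0.0527). The calls for the long members hung on single WT DMSO libraries, which differed more among themselves than those of the other groups. Slfn5 was called without replicate 1 (adjusted p = 0.0342) or replicate 2 (adjusted p = 0.00498), Slfn9 was called higher in WT without replicate 2 (log2 difference 0.23, adjusted p = 0.0115), and Slfn8 was called lower in WT without replicate 3 (log2 difference -0.23, adjusted p = 0.0321).

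Transcripts of other cell types moved with genotype in these same DMSO libraries. Called higher in WT were all 8 B cell markers, all 6 tested myeloid markers, 5 of 7 CD8 T and natural killer cell markers (with 1 lower) and 2 of 3 tested dendritic cell markers. Gzma averaged 45.5 CPM in WT and 8.45 CPM in STINGgt/gt cells, Lyz2 3.25 and 0.489 CPM, and the cytokine receptor Flt3 9.69 and 2.54 CPM. Of the 10 T cell markers 2 were called higher and 2 lower. The part of these cells in the Schlafen levels was not tested.

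With CMA in both genotypes, 6 of the 7 members were called higher in WT, beside 37.0% of all tested genes, and all 7 had their WT libraries above every STINGgt/gt library, beside 39.7% of all tested genes. This comparison shares its WT libraries with that of CMA against DMSO. Cell type markers also moved here. Called higher in WT were 7 of 8 B cell markers (with 1 lower), 5 of 6 tested myeloid and all 3 tested dendritic cell markers. Of 7 CD8 T and natural killer cell markers 4 were called higher and 3 lower, and of 10 T cell markers 2 and 5. The part of these cells in the Schlafen levels was not tested. Slfn4 differed by 3.62 ± 0.197 (edgeR adjusted p = 5.18e-11) and Slfn5 by 3.51 ± 0.0910 (edgeR adjusted p = 4.94e-15) on the log2 scale. Slfn2, which was lower in WT with DMSO, differed by 0.59 ± 0.0546 (edgeR adjusted p = 4.80e-08). Slfn3 was the exception, with a log2 difference of 0.15 ± 0.0842 (edgeR adjusted p = 0.117, limits of 2 standard errors -0.02 to 0.32). Slfn3 passed the test when only the groups compared were fitted (adjusted p = 0.0278), or without WT DMSO replicate 2 (adjusted p = 0.0460) or replicate 3 (adjusted p = 0.0267).

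To compare levels between genes, CPM was divided by the kilobases of merged exons. On this scale Slfn2 led with DMSO in WT cells at 51.8 ± 5.08 CPM per kb (SD, n = 3), followed by Slfn1 at 18.7 ± 2.53. Slfn8 (4.83 ± 0.749), Slfn9 (4.54 ± 1.05) and Slfn3 (3.39 ± 0.580) formed a middle tier in which neighbours overlapped. Slfn5 (1.85 ± 0.371) and Slfn4 (0.0911 ± 0.0108) were lowest and overlapped with no other member.

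CMA changed this order in WT cells. Slfn1 (152 ± 6.21 CPM per kb) reached Slfn2 (149 ± 1.504), with overlapping libraries. Slfn8 (27.5 ± 1.45) came next, and Slfn5 (18.1 ± 0.508) stood above Slfn9 (9.50 ± 0.433) and Slfn3 (7.22 ± 0.271). Slfn4 stayed last at 0.993 ± 0.119. In STINGgt/gt cells the order was Slfn2, Slfn1, Slfn3, Slfn8, Slfn9, Slfn5, Slfn4 with DMSO and with CMA, and Slfn3 and Slfn8 overlapped with DMSO.

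The summed level of the family was 78.0, 81.9 and 95.8 CPM per kb in WT DMSO and 364, 356 and 372 in WT CMA, a ratio of means of 4.27. In STINGgt/gt cells it was 116, 113 and 121 with DMSO and 142, 146 and 144 with CMA, a ratio of 1.23. Slfn1 made up 21.9% ± 1.75 of the sum in WT DMSO and 41.6% ± 1.00 in WT CMA (SD, n = 3). Over the same groups the share of Slfn2 went from 60.9% ± 0.722 to 41.0% ± 0.818. The share of Slfn2 in STINGgt/gt cells was 64.1% ± 0.747 with DMSO and 68.9% ± 0.592 with CMA. Within each genotype the DMSO and CMA libraries did not overlap in the summed level or in these shares, and an exact permutation test of 3 against 3 cannot go below p = 0.1.

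**Figure D3:**
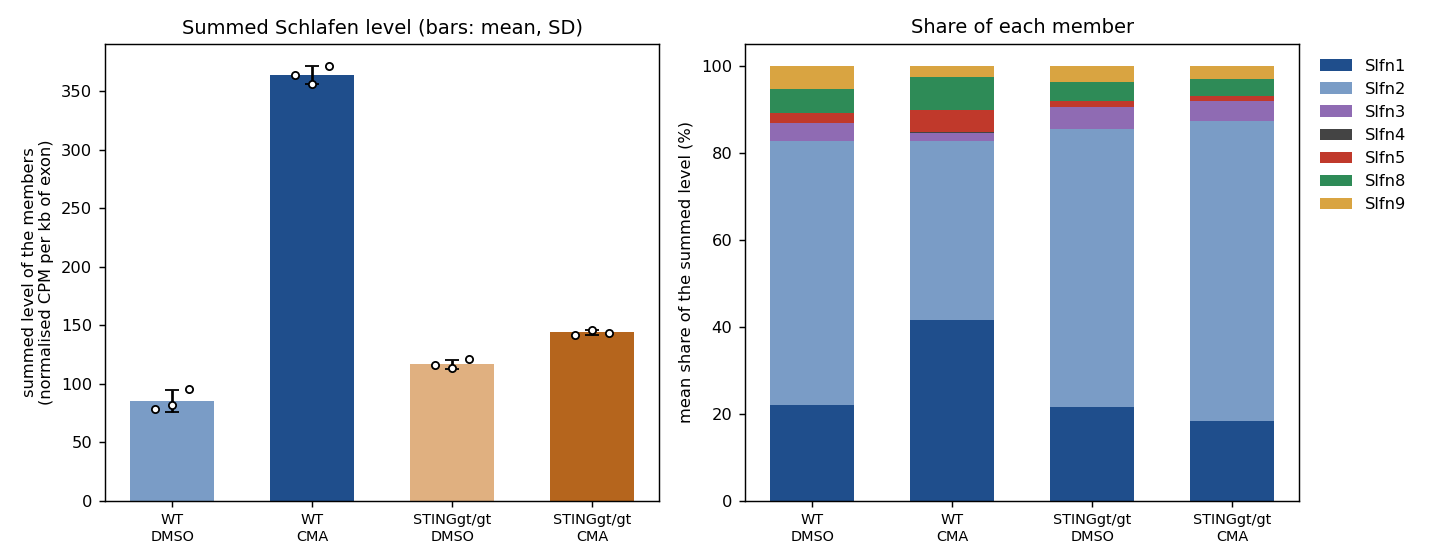
Left, summed level of the 7 members in normalised CPM per kb of exon (bars, mean; error bars, SD; circles, the 3 libraries); right, mean share of each member in that sum, in percent. The WT CMA bar stands at 364, more than any other group, and its Slfn1 segment is 41.6% against 21.9% with DMSO.

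Members of the family share sequence with other genes, which bears on how far the members' reads can be separated. Of the 50-base stretches in its annotated transcripts, Slfn1 shared 0.606% with another gene on either strand, and Slfn2 4.27%. For Slfn5, Slfn4, Slfn9, Slfn8 and Slfn3 the shares were 11.1%, 11.3%, 11.9%, 14.6% and 16.0%. With 100-base stretches none of the members was above 6.40% (Slfn5). For Slfn5 most of this was with the overlapping antisense gene Slfn5os (7.38% of its 50-base and 6.16% of its 100-base stretches). A read there fits 1 place, and its gene can be told only by strand. The strand setting of the counting is not given, so whether such reads were counted for Slfn5 is not known. For the other members, reads that fit several places were not counted per gene, so levels of those with larger shares are uncertain.

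The pseudogene Slfn10-ps lies in the cluster between Slfn8 and Slfn2, and shared 19.7% of its 50-base stretches with other genes. It read 25.7, 16.6 and 31.5 CPM in WT DMSO and 99.3, 86.7 and 89.1 CPM in WT CMA, a log2 difference of 1.88 ± 0.141 (edgeR adjusted p = 4.43e-09). In STINGgt/gt cells it read 26.6, 30.8 and 30.8 CPM with DMSO and 34.4, 39.1 and 37.8 CPM with CMA, with no overlap, and a log2 difference of 0.34 ± 0.141 (edgeR adjusted p = 0.313). Of 20 alternative fits 3 called it higher there, which were those with no filter on low counts (adjusted p = 8.15e-05), with only the groups compared (adjusted p = 0.00101) and without WT DMSO replicate 2 (adjusted p = 0.0128), and over all 20 the adjusted p reached 0.650. Slfn14, known from platelets and red cell precursors, had 0 or 1 read in each library, and Slfnl1, a related gene on chromosome 4, had 0 to 2. Neither was tested.

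Genes around and inside the cluster did not all move with it. The cluster was taken over the 10 Schlafen-named genes of chromosome 11, from Slfn5os to Slfn14, and spans 344 kb. On the side of Slfn5, Rad51d, a DNA repair gene, had a log2 difference of 0.20 (edgeR adjusted p = 0.00210) and Nle1, a ribosome assembly gene, -0.97 (edgeR adjusted p = 5.63e-09) with CMA in WT. The nearest gene there, the muscle chaperone Unc45b, had 0 to 2 reads per library in WT DMSO and 52 to 59 in WT CMA, with at most 1 read in any STINGgt/gt library. On the far side, AA465934 (-0.25, adjusted p = 0.191) and Snord7 (-0.44, adjusted p = 0.251) did not pass the test.

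Inside the cluster 3 other tested genes were annotated, and they are named after their values were seen. Gm11425, next to Slfn10-ps, had a log2 difference of 2.02 (edgeR adjusted p = 9.77e-09) in WT. AI662270 (-0.12, edgeR adjusted p = 0.0560) and Gm11427 (-0.06, edgeR adjusted p = 0.495), which lie beyond Slfn3, did not pass the test.

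**Figure D4:**
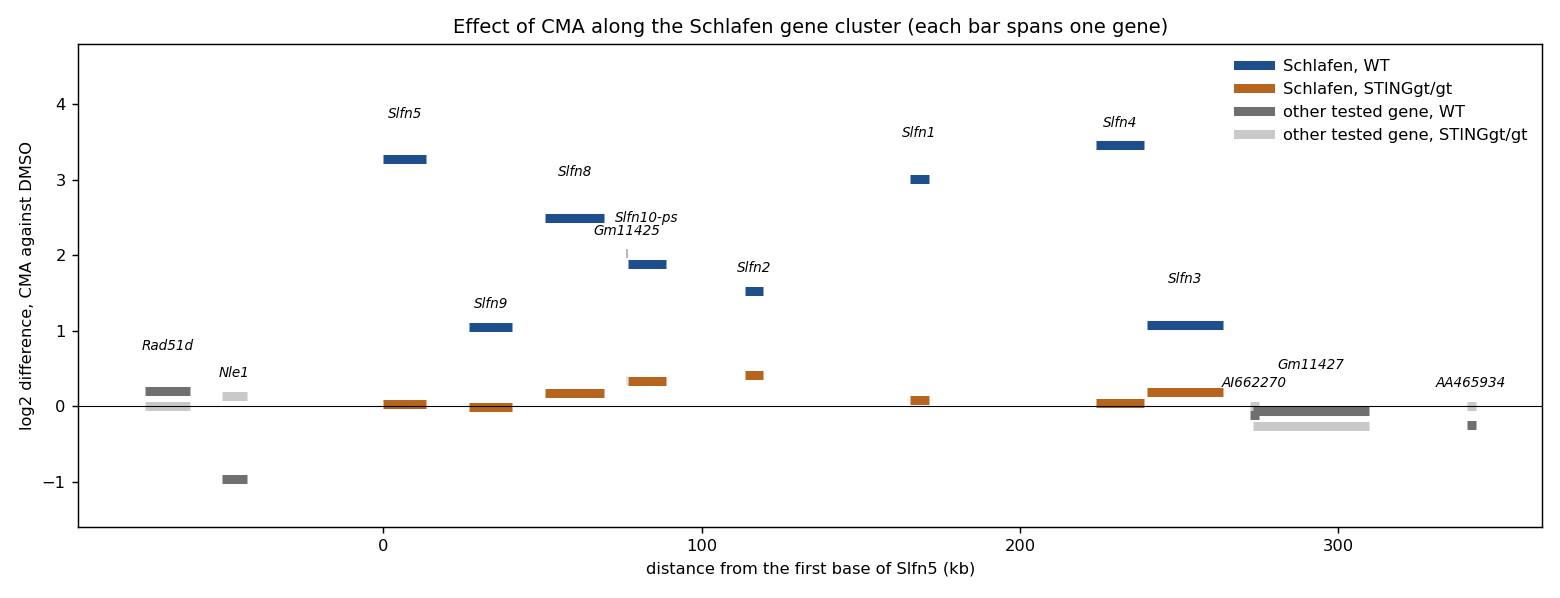
The log2 difference between CMA and DMSO (vertical axis) along the cluster, by distance in kb from the first base of Slfn5 (horizontal axis); each bar spans 1 gene, coloured by family and genotype. Not every neighbour is drawn; the WT bars of the Schlafen genes lie between 1.05 and 3.45, and those of AI662270 and Gm11427 lie near 0, at -0.12 and -0.06.

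All other tested genes, the remaining members included, were ranked by how closely they followed each member, as the root mean square difference of centred log2 CPM over the 12 libraries, among 13810 genes. Slfn1 was followed most closely by Parp14 (0.10) and Rnf213 (0.14), both large interferon-linked proteins. Slfn2 had Gbp2 (0.08) and Gbp4 (0.10), guanylate-binding proteins of the interferon response.

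Slfn3 had Cmah (0.10), a sialic acid enzyme, and Nebl (0.11). Slfn4 had AW011738 (0.21) and Casc1 (0.22), the most distant nearest genes of any member. Slfn5 had Pyhin1 (0.14), of a family that includes DNA sensors, and Gdf11 (0.15). Slfn8 had Slc44a1 (0.09), a choline transporter, and Gm4951 (0.15), and Slfn9 had Bbx (0.07) and 2810474O19Rik (0.08). These ranks describe likeness over 12 libraries only.

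The wider interferon response gives the members' changes a scale. Of 28 other interferon-stimulated genes, all tested, 28 were called higher with CMA in WT, with a median log2 difference of 3.94, above the members' 2.50. The most abundant of them were Samhd1, a nucleotide-depleting antiviral enzyme (1.48, edgeR adjusted p = 1.10e-13), Trim25, a ubiquitin ligase (1.91, edgeR adjusted p = 3.33e-15), and Oas3, a sensor of double-stranded RNA (2.45, edgeR adjusted p = 2.69e-14). In STINGgt/gt cells none was called higher and 1 lower, with a median of -0.07. With DMSO, 8 were called higher and 8 lower in WT than in STINGgt/gt cells.

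Of 15 genes of the interferon receptor and JAK-STAT route, 10 were called higher and 2 lower with CMA in WT. The kinase Jak2 had a log2 difference of 0.43 (edgeR adjusted p = 1.20e-05). Jak1 did not pass the test (-0.08, edgeR adjusted p = 0.214). In STINGgt/gt cells 1 was called higher and 1 lower.

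Quiescence genes were listed because of the known role of Slfn2. Of 26 genes 25 were found and tested, and 20 were called higher and 2 lower with CMA in WT, with a median log2 difference of 0.32. Among the most abundant were the homing receptor Ccr7 (2.01, edgeR adjusted p = 3.57e-15) and the naive-state factor Tcf7 (1.03, edgeR adjusted p = 2.04e-11). In STINGgt/gt cells none of the 25 was called higher and 2 were lower.

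Genes that cleave or protect transfer RNA were listed for the same reason. Of 12 genes 11 were tested, and with CMA in WT 3 were called higher and 7 lower, with a median log2 difference of -0.41. Nsun2, which methylates transfer RNA, fell by 1.14 on the log2 scale (edgeR adjusted p = 5.88e-13). Rnh1, an inhibitor of ribonucleases, fell by 0.41 (edgeR adjusted p = 1.02e-05), and the processing enzyme Elac2 fell by 0.59 (edgeR adjusted p = 1.59e-08). None of the 11 was called in STINGgt/gt cells.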

How the data were processed

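Raw read counts per Ensembl gene were deposited by the authors, 1 table per library, together with a log2 table of normalised expression. Per the labels, libraries were made with a stranded mRNA kit, and the processing notes name cutadapt 1.3, STAR 2.4.0f1, HTSeq 0.6.1, RSEM 1.2.16 and GRCm38. The strand setting of the counting is not given in the sources used here. Alignments that were not unique (27.8% to 30.3% of entries), reads outside genes (4.86% to 7.16%) and ambiguous reads (0.594% to 0.635%) entered neither library sizes nor tests. Counts were tested with edgeR 4.0.16 (R 4.3.3): TMM scaling, filterByExpr by group (13811 genes kept), 4 groups in 1 quasi-likelihood model without a block, and Benjamini-Hochberg adjustment over all kept genes. Levels are TMM-scaled CPM, and log2 CPM for the likeness used a prior count of 2. Exon lengths came from GENCODE, and the members' positions from the deposited table. The fit was tested on simulated data. Alternatives were other scalings and filters, DESeq2 1.42.0, limma 3.58.1 (voom, and on the deposited log2 values), narrower fits, replicate blocks, and leaving out each library.

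Named genes were the members, other Schlafen-named genes, the 3 most abundant genes of each list, the 2 genes most like each member, the 3 tested neighbours on each side, and Tmem173. Outside this rule, Lat, Cd247, Xcr1, Clec9a, Siglech, S100a8, S100a9 and Fcgr1, and the tested genes inside the cluster (Gm11425, AI662270 and Gm11427), were named after their values were seen. A few of the genes so chosen are left out of the text. The members and lists were chosen with earlier results of these data known.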

Additional observations from a re-analysis of the deposited data

Results flagged for a closer look

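Each of the 7 members had an effect of CMA that differed between WT and STINGgt/gt cells by edgeR's interaction test. On the log2 scale, WT minus STINGgt/gt came to 2.94 for Slfn1, 1.11 for Slfn2, 0.89 for Slfn3, 3.41 for Slfn4, 3.25 for Slfn5, 2.33 for Slfn8 and 1.06 for Slfn9. All 7 were called in every alternative fit in which they were tested. With all libraries 6 of them, all but Slfn3, differed by at least 2-fold. That size depended on single libraries for 2 members, since without WT DMSO replicate 2 Slfn9 came to 0.90, under 2-fold, and without WT DMSO replicate 3 Slfn3 came to 1.05, over 2-fold.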

How the results depend on the processing

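The calls of all 7 members in WT and of the interaction, of Slfn2 in STINGgt/gt, and of Slfn1, Slfn2 and Slfn3 with DMSO were kept in every alternative fit in which the gene was tested. A minimum of 10 counts in every library left Slfn4 untested, and DESeq2 gave it no adjusted p in STINGgt/gt. Asking for a 2-fold change as well, 0 members were called higher in STINGgt/gt and 0 lower in WT with DMSO. Members called higher in WT with DMSO numbered 1 with no filter (Slfn5, adjusted p = 0.00773), and 0 to 2 when single libraries were left out. Signs turned for values not called in the main test, and the cause was not tested. In STINGgt/gt, leaving out single libraries gave Slfn4 -0.21 to 0.26 (negative without DMSO replicate 1, at -0.14, or CMA replicate 1) and Slfn5 -0.043 to 0.059 (negative without CMA replicate 1), and no filter gave Slfn9 0.0012. With DMSO it gave Slfn8 -0.23 to 0.0075 (positive without WT replicate 2 or, at 0.0016, STINGgt/gt replicate 3) and Slfn9 -0.12 to 0.23 (negative without WT replicate 3).

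Same-numbered DMSO and CMA libraries correlated at 0.00195 to 0.132 in WT and 0.0585 to 0.0634 in STINGgt/gt. Differently numbered ones correlated at -0.15 to 0.056 in WT and -0.061 to 0.00346 in STINGgt/gt. These low values do not settle whether the numbers mark pairs, and the main model had no block. With a replicate block the counts were 7 higher in WT, 1 higher in STINGgt/gt, 7 for the interaction, 3 lower in WT with DMSO and 6 higher with CMA, which moved none of them. Without length scaling the summed level in WT rose 4.40 times, against 4.27 per kb. Slfn4 is the member that depth limits.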
